A study of Mus musculus with 6 samples.

Results

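The interferon-stimulated genes are 40 mouse genes whose transcription is known to rise when a cell senses interferon, and they were chosen by name, leaving out the Irf and Stat transcription factor genes. Of these, 38 had a probe set that the platform annotation assigns to a single gene, among 18193 such genes on the array. Isg15 and Ifi44 were not analysed here. RNA was read on 6 whole-genome arrays, 3 of irradiated cells (1 Gy) and 3 of unirradiated cells (0 Gy), all from wild type mouse pre-B lines that the v-abl oncogene had transformed. All 6 cultures, controls included, had been held for 48 hours in 3 μM STI571 (imatinib), an Abl kinase inhibitor that stops these cells between G1 and S phase, and the irradiated ones were collected 2 hours after 1 Gy of γ-rays given at 0.72 Gy per minute. Per the methods, the lines were derived independently from wild type mice that carried an Eμ-Bcl2 transgene, which drives the survival gene Bcl2 in B lineage cells, and their RAG endonuclease was wild type, so both groups could also make RAG breaks. Each line gave 1 array at each dose, and the replicate number stands for the line below. No time other than 2 hours was measured on these arrays, and each line is a transformed culture, not the pre-B cells of an animal.

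Interferons are cytokines that cells secrete on meeting viral nucleic acid. They bind paired receptor chains whose Janus kinases phosphorylate transcription factors of the STAT family, which then bind interferon-stimulated response elements, together with IRF9, or gamma-activated sites. The genes switched on in this way encode proteins that block viral RNA, GTPases that attack the vacuoles of pathogens, and the peptide loading machinery of MHC class I, and several of them also carry sites for IRF1 or NF-κB.

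Promoter sequences are shown for 6 of the genes, because the elements through which interferon acts lie there and because these 6 behaved differently on the arrays. Ifit1 stayed below 100 on every array, the brightest probe sets of Gbp2 and Gbp3 were lower in line 1 and higher in lines 2 and 3 after irradiation, Igtp and Irgm1 were both lower on every 1 Gy array, and Dtx3l was higher on every 1 Gy array. Each line below gives the 250 bases before an annotated transcript start, 5′ to 3′ in the direction of transcription, from RefSeq (GRCm38.p6). Capitals mark the letters GAAANNGAA, the core of the interferon-stimulated response element, or TTCNNNGAA, the gamma-activated site, on either strand.
Ifit1, chr19:34640639-34640888, plus strand: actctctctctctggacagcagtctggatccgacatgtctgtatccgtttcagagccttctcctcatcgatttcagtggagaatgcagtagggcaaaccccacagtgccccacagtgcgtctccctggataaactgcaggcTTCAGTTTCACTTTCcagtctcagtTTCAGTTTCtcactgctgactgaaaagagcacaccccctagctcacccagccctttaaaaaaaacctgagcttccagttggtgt
Gbp2, chr3:142620413-142620662, plus strand: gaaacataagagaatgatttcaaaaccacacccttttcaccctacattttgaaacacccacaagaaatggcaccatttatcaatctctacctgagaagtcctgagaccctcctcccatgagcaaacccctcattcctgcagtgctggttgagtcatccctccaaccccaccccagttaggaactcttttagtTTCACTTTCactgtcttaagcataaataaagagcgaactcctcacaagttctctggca
Gbp3, chr3:142559794-142560043, plus strand: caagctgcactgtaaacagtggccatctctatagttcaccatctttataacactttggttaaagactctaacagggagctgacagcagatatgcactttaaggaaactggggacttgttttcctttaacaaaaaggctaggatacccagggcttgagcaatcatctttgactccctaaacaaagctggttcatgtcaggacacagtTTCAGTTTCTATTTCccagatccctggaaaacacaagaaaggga
Igtp, chr11:58199306-58199555, plus strand: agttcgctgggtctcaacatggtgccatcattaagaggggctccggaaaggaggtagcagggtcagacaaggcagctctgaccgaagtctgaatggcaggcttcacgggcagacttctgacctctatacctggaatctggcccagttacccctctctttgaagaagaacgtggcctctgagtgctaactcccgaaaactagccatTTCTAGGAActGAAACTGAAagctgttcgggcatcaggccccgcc
Irgm1, chr11:48871421-48871670, minus strand: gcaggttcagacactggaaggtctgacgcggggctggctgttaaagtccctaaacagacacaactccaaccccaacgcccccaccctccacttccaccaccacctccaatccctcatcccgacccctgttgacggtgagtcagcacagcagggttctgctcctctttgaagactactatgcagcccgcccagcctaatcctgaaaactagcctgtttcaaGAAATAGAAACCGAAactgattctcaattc
Dtx3l, chr16:35939028-35939277, minus strand: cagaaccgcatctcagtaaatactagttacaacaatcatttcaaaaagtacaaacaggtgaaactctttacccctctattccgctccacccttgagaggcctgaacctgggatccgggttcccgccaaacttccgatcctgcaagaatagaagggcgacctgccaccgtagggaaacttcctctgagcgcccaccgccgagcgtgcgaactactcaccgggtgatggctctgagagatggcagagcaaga
In the Ifit1 window the response element core began 109, 103 and 84 bases before the start, the first 2 overlapping. Gbp2 held a single core at 58 bases. Gbp3 had overlapping cores at 44 and 38 bases, and Irgm1 had them at 30 and 24 bases. The Igtp window held a core at 34 bases and a gamma-activated site at 45 bases, next to each other. The Dtx3l window held neither motif.

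Such windows were at hand for 28 of the 40 genes, in 34 windows. The response element core stood in 14 of the 34 windows (41.2%), against 7.13% of all 32851 mouse promoter windows, the gamma-activated site in 6 (17.6%, against 7.02%) and the kappa-B motif, searched by name, in 7 (20.6%, against 7.25%). Counted by gene, 14 of the 28 held the response element core in at least 1 window. Of the 17 genes with a window that were bright enough to be tested for dose, 7 held the response element core, and of the 9 with a window that were under 100 on every array, 6 did. The letters overlap in places, as in Bst2, and a match describes the sequence only. Genes without a window were Dhx58, Gbp6, Iigp1, Mx1, Mx2, Oas2, Parp14, Parp9, Rtp4, Tap2, Usp18 and Zbp1.

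The deposited values are linear signals in arbitrary units, scaled so that each array's 2% trimmed mean is 500, and the array medians ran from 51.6 to 59.4. Genes of pre-B cells were bright, with all 13 measured markers above 100 and their summed signal between 163700 and 168700 at 0 Gy and between 127400 and 167500 at 1 Gy. Of the 13, Rag1 (mean 16771 at 0 Gy and 4902 at 1 Gy) and Rag2 (1509 and 283) were called lower without the cell line as a block. Their limma adjusted p was 0.0188 and 0.0185, and they make up 15.4% of the 13, against 3.2% of all genes. With the block Dntt was lower too (adjusted p = 0.0198), and no pre-B marker was called higher either way. Markers of cells that could make or answer interferon were few. Of 7 T cell markers only Cd2 exceeded 100 on any array (summed signal 719.7 to 2515 at 0 Gy and 224.7 to 950.4 at 1 Gy), of 9 myeloid markers 3 did (444.9 to 735 and 585.6 to 805.2), of 6 plasmacytoid dendritic cell markers 2 did (411.9 to 585.4 and 442.1 to 661.8), of 4 natural killer cell markers 2 did (163.9 to 1951 and 152.3 to 758.7) and of 6 fibroblast markers none did. The defining markers Cd3e, Lyz2, Siglech and Ncr1 stayed under 100 on every array. Among these other markers over 100, Itgam (to 342), Cd68 (to 185) and Flt3 (to 296) were higher in all 3 irradiated lines. Cd2 was lower in all 3. Each of the 4 passed with the block (limma adjusted p = 0.0227, 0.0352, 0.0448 and 0.0150) and not without it. The myeloid marker Fcgr3 (to 326) was instead lower in all 3 lines and did not pass (adjusted p = 0.101 with the block). Klk1 (to 276) and Prf1 (to 180) had lines moving both ways, and Klrd1 reached 1782 in line 3 at 0 Gy. The part of such cells in the results was not tested. In such bulk samples, fewer cells that express a gene and less of its RNA per cell cannot be told apart.

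Many of the best known antiviral genes were dim in these cells, but the family's share of dim genes did not exceed the array's. Of the 38 genes measured, 16 (42.1%) stayed under 100 on every array, the level below which probe sets were not tested, and among all named genes on the array the share was 46.97%. They included the RNA-binding proteins Ifit1 and Ifit3, whose highest signals were 23.3 and 57.6, and the dynamin-like GTPases Mx1 and Mx2, which halt viral particles and reached 30.8 and 5.57. Rsad2, which makes a chain-terminating nucleotide, reached 56.0, and Ifitm3, which blocks viral entry at the membrane, reached 22.3. All 5 measured genes of the oligoadenylate synthetase family, which activate RNA decay or bind RNA, lay there too, with highest signals of 58.1 for Oas1a, 52.9 for Oas2, 16.6 for Oas3, 53.3 for Oasl1 and 33.2 for Oasl2. The RNA sensors Ifih1 and Dhx58 reached 30.5 and 83.9. Usp18, the protease that removes ISG15 and dampens the receptor, reached 29.4, the vacuole GTPase Iigp1 reached 29.8 and the chaperone Rtp4 reached 33.4. Irradiated and unirradiated arrays lay under this level alike for these 16, so a small change in them was not detectable here.

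**Figure D1:**
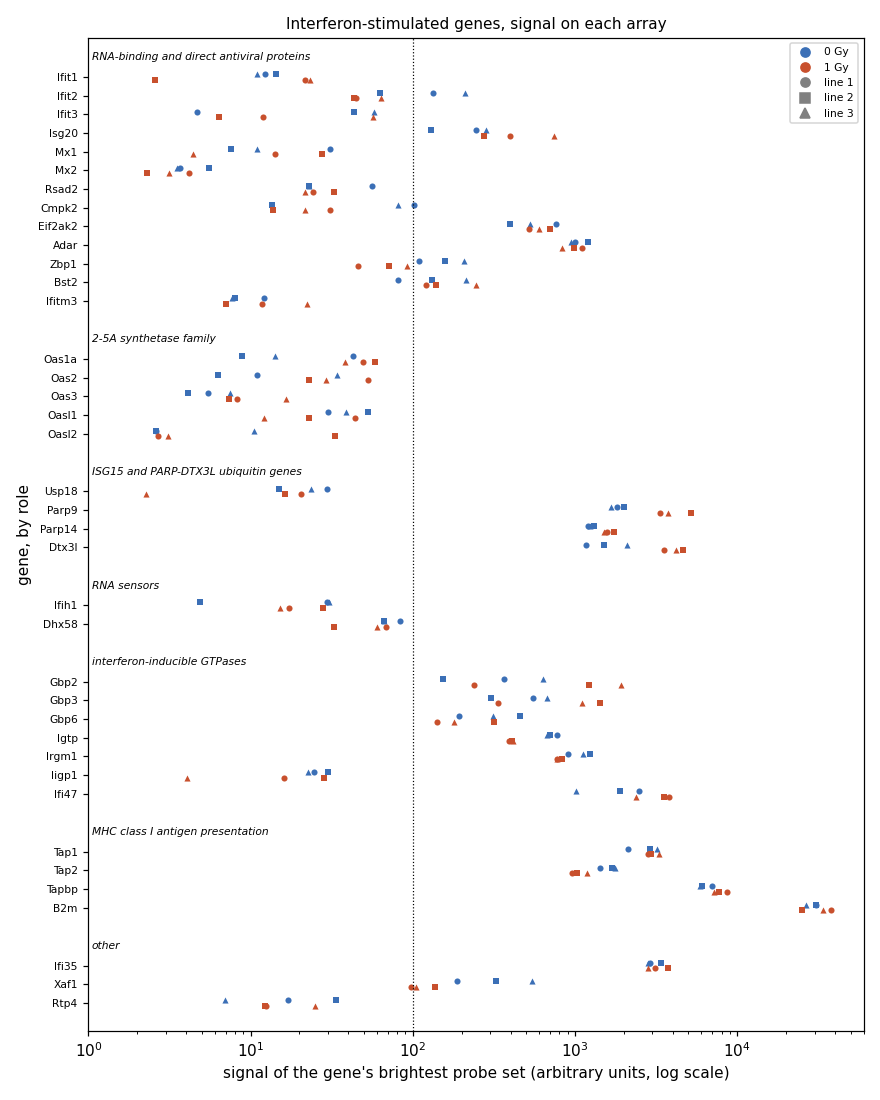
Signals of the 38 measured interferon-stimulated genes on each of the 6 arrays (horizontal axis, arbitrary units, log scale; blue for 0 Gy, orange for 1 Gy; marker shape for the line), grouped by role, with a dotted line at a signal of 100. The 16 genes that lie wholly left of the line include every measured oligoadenylate synthetase gene.

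The remaining 22 genes were tested for dose with limma over all probe sets of the array that reached 100 on at least 1 array, and read at the brightest probe set of each gene. Parp9 and Dtx3l rose and Igtp fell at an adjusted p under 0.05. That is 2 genes higher (9.09%) where 2.11% of all 9648 genes tested were called higher, and 1 lower (4.55%) where 3.2% were called lower. With the cell line as a block, which compares each irradiated array with the unirradiated array of its own line, 4 genes were higher (18.2%, against 6.63% of all genes), namely Parp9, Dtx3l, Isg20 and Ifi47, and 6 were lower (27.3%, against 14.6%), namely Igtp, Tap2, Zbp1, Ifit2, Gbp6 and Xaf1. At an unadjusted p under 0.05 without the block, 3 genes were higher and 6 lower, where 8.39% and 16.7% of all genes were.

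The group as a whole did not move one way. The median log2 change over the 22 genes was 0.14, against -0.11 over all genes tested, and the single values ran from -1.52 for Xaf1 to 1.41 for Dtx3l. In all 3 lines 8 genes were higher after irradiation, in all 3 lines 7 were lower, and 7 were higher in some lines and lower in others, where 23.8%, 41.3% and 34.9% of all genes tested did so. The 3 calls made without the block were lost when any 1 array or line was left out, for Parp9, Dtx3l and Igtp alike, with log2 changes that stayed between 0.97 and 1.29, between 1.21 and 1.63 and between -0.88 and -0.74. Scaling every array to a common median left Igtp called (adjusted p = 0.0480) while Parp9 (adjusted p = 0.0536) and Dtx3l (adjusted p = 0.0553) then missed the threshold, and over all probe sets it turned 419 higher and 556 lower calls into 366 and 274.

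**Figure D2:**
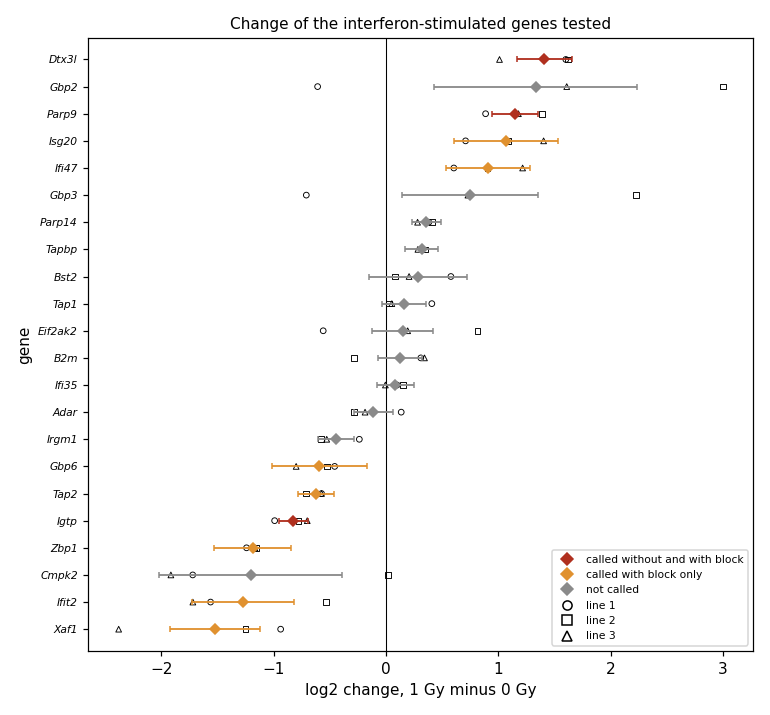
Log2 change (1 Gy minus 0 Gy) of the 22 interferon-stimulated genes tested, ordered by size, with the limma estimate and its standard error (diamonds and bars over 3 arrays a dose) and the change within each of the 3 lines (open markers). Dtx3l and Parp9 stand at the top with all 3 lines above 0, Xaf1 at the bottom with all 3 below 0, and Gbp2 and Gbp3 have lines on both sides of 0.

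Dtx3l and Parp9 were the interferon-stimulated genes that rose without the block. They encode an E3 ubiquitin ligase and the ADP-ribosyltransferase that binds it, a complex that is recruited to damaged chromatin and also boosts antiviral gene expression. Dtx3l gave signals of 1171, 1504 and 2076 at 0 Gy in lines 1, 2 and 3 and of 3553, 4618 and 4183 at 1 Gy. Every irradiated array exceeded every unirradiated one, and the mean went from 1584 ± 458 to 4118 ± 535 (SD, n = 3 each), 2.60-fold (log2 change 1.41, SE 0.25, limma adjusted p = 0.0398). A second probe set of Dtx3l gave a log2 change of 1.31 (adjusted p = 0.037).

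Parp9 gave 1811, 1991 and 1663 at 0 Gy and 3348, 5215 and 3765 at 1 Gy. Here too the groups did not overlap, and line 2 was the highest at both doses. The mean rose 2.26-fold, from 1822 ± 165 to 4109 ± 980 (SD, n = 3 each; log2 change 1.15, SE 0.20, limma adjusted p = 0.0414). The genes are neighbours on chromosome 16 and overlap in the annotation (GRCm38.p6, Dtx3l at chr16:35926515-35939027 and Parp9 at chr16:35938470-35972621). The Dtx3l window printed above lies within the annotated span of Parp9.

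Parp14, another ADP-ribosyltransferase that interferon induces, gave 1206, 1309 and 1238 at 0 Gy and 1571, 1741 and 1504 at 1 Gy. The groups did not overlap and the difference was small, 1251 ± 52.9 against 1605 ± 122 (SD, n = 3 each). Its log2 change of 0.36 had a 95% interval of 0.04 to 0.68 and did not pass the test over all probe sets (limma adjusted p = 0.177).

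The GTPases, which coat and break the vacuoles of intracellular pathogens, did not share a direction, with Igtp called lower without the block and Gbp6 lower and Ifi47 higher with it. Igtp, an immunity-related GTPase that keeps its relatives in check on host membranes, gave 775, 698 and 671 at 0 Gy and 390, 407 and 413 at 1 Gy. Its irradiated arrays lay close together, well below all unirradiated ones. The mean fell from 714 ± 53.9 to 403 ± 11.9 (SD, n = 3 each; 1.77-fold lower, log2 change -0.82, SE 0.13, limma adjusted p = 0.0339).

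Irgm1, a related regulatory GTPase that also takes part in autophagy, gave 910, 1240 and 1118 at 0 Gy and 772, 831 and 775 at 1 Gy. The groups did not overlap, and the log2 change of -0.45 (95% interval -0.84 to -0.05) did not pass the test without the block (adjusted p = 0.173) or with it (adjusted p = 0.0802). Gbp6, a guanylate-binding protein, gave 194, 455 and 312 at 0 Gy and 141, 317 and 179 at 1 Gy. It was lower after irradiation within each line, but the lines differed so much that the groups overlapped. Its log2 change of -0.59 (SE 0.42) did not pass without the block (adjusted p = 0.469) and passed with it (adjusted p = 0.0446), and without the 0 Gy array of line 2 it was -0.30 in the fit without the block.

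Ifi47, a further immunity-related GTPase, gave 2491, 1886 and 1016 at 0 Gy and 3786, 3527 and 2361 at 1 Gy. Every line was higher after irradiation, though line 3 at 1 Gy was still below line 1 at 0 Gy. Its mean of 1798 ± 741 at 0 Gy stood against 3225 ± 759 at 1 Gy (SD, n = 3 each; 1.79-fold, log2 change 0.91, SE 0.38), which passed with the line as a block (limma adjusted p = 0.0296) and not without it (adjusted p = 0.224). Without the 0 Gy array of line 3 the log2 change was 0.54 in the fit without the block. The changes within lines 1, 2 and 3 were 0.60, 0.90 and 1.22.

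Gbp2 and Gbp3, guanylate-binding proteins encoded in the same stretch of chromosome 3 (GRCm38.p6, chr3:142620663-142638008 and chr3:142560016-142573213), split by line. Gbp2 gave 364, 153 and 633 at 0 Gy and 238, 1227 and 1930 at 1 Gy, so that it was lower after irradiation in line 1 (log2 change -0.61) and higher in lines 2 (3.00) and 3 (1.61). Gbp3 gave 550, 304 and 668 at 0 Gy and 336, 1425 and 1108 at 1 Gy, with log2 changes of -0.71, 2.23 and 0.73 in lines 1, 2 and 3. For both genes line 2 was the lowest at 0 Gy, and line 1 was the lowest at 1 Gy. Neither mean difference passed, and leaving out line 2 took the log2 changes to 0.50 and 0.0099, leaving out line 1 to 2.31 and 1.48 (log2 change 1.33, 95% interval -0.88 to 3.55, adjusted p = 0.444 for Gbp2 and 0.75, -0.74 to 2.24, adjusted p = 0.527 for Gbp3), with or without the block. A second Gbp2 probe set gave 232, 209 and 555 at 0 Gy and 288, 1135 and 1582 at 1 Gy, where line 1 was slightly higher after irradiation instead. The brightest Gbp2 probe set is of a design that can also bind related sequences, so its reading is uncertain within this gene family.

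**Figure D3:**
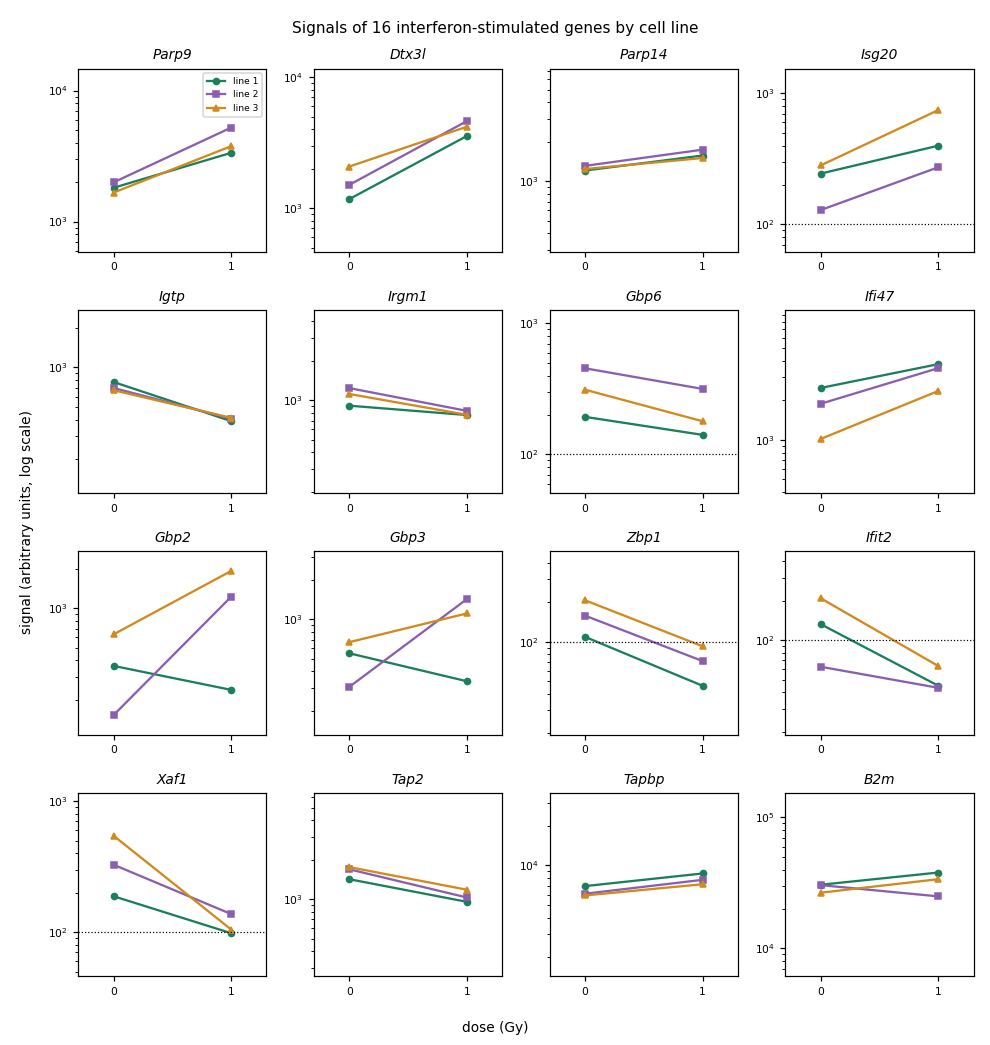
Signals of 16 of the genes (vertical axes, arbitrary units, log scale) at 0 and 1 Gy, 1 coloured line for each of the 3 cell lines, with a dotted line at a signal of 100 where it falls within the panel. Parp9 and Dtx3l climb and Igtp drops in every line, while Gbp2 and Gbp3 climb in lines 2 and 3 and drop in line 1.

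Among the 7 RNA-binding and direct antiviral genes that could be tested, none passed without the block, where 2.11% of all genes were called higher and 3.2% lower. With the block 1 was higher (14.3%, against 6.63% of all genes) and 2 were lower (28.6%, against 14.6%). Isg20, an exonuclease that degrades viral RNA, gave 244, 129 and 282 at 0 Gy and 399, 273 and 745 at 1 Gy. All 3 lines were higher after irradiation, and line 2 at 1 Gy lay just below line 3 at 0 Gy. Its mean of 218 ± 79.8 stood against 472 ± 244 (SD, n = 3 each; log2 change 1.07, SE 0.46), with an adjusted p of 0.0251 with the block and of 0.243 without it. Without the 1 Gy array of line 3 the log2 change was 0.67 in the fit without the block. The changes within lines 1, 2 and 3 were 0.71, 1.09 and 1.40.

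Zbp1, a sensor of Z-form nucleic acid that can start necroptosis, gave 109, 158 and 207 at 0 Gy and 46.1, 71.2 and 92.3 at 1 Gy. Every irradiated array lay under 100 and below every unirradiated one, with the lines in the same order at both doses. The log2 change of -1.19 (SE 0.35) passed with the block (limma adjusted p = 0.0122) and not without it (adjusted p = 0.115). Ifit2, which binds viral RNA, gave 133, 62.7 and 209 at 0 Gy and 44.9, 43.3 and 63.5 at 1 Gy. Line 2 was already under 100 before irradiation, all 3 lines were under it afterwards, and the groups overlapped by a narrow margin. Its log2 change of -1.27 (SE 0.45) passed with the block (adjusted p = 0.0417) and not without it (adjusted p = 0.171). With signals under 100 set to 100, an alternative added after the data were seen where it is joined to the block, neither Zbp1 (log2 change -0.61, adjusted p = 0.0965 with the block) nor Ifit2 (-0.49, adjusted p = 0.187) passed.

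Cmpk2, a mitochondrial nucleotide kinase, exceeded 100 on a single array, with 102, 13.5 and 81.1 at 0 Gy and 30.8, 13.7 and 21.5 at 1 Gy. Line 2 was the lowest at both doses, and the mean difference did not pass (log2 change -1.21, 95% interval -3.20 to 0.78, adjusted p = 0.441, and -0.0078 with signals under 100 set to 100). Eif2ak2, the kinase PKR that stops translation on binding double-stranded RNA, gave 767, 398 and 528 at 0 Gy and 521, 699 and 603 at 1 Gy. It was lower after irradiation in line 1 and higher in lines 2 and 3 (log2 change 0.15, 95% interval -0.52 to 0.82, adjusted p = 0.799). Its probe sets disagreed, since both other tested probe sets gave a log2 change of -0.54, were lower in all 3 lines and passed with the block (adjusted p = 0.0448 and 0.0398) but not without it (0.190 and 0.481).

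Adar, which edits adenosine to inosine in double-stranded RNA, gave 1001, 1193 and 943 at 0 Gy and 1099, 978 and 829 at 1 Gy. The groups overlapped (log2 change -0.11, 95% interval -0.54 to 0.31, adjusted p = 0.757). Bst2, or tetherin, which holds budding virus at the cell surface, gave 80.6, 131 and 213 at 0 Gy and 120, 138 and 246 at 1 Gy. Every line was higher at 1 Gy and the groups overlapped. The dose difference did not pass without the block (log2 change 0.29, 95% interval -0.78 to 1.36, adjusted p = 0.754) or with it (adjusted p = 0.230).

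Of the 4 genes of the MHC class I loading machinery, only Tap2 was called, and only with the block (25% lower, against 14.6% of all genes). Tap2, which with TAP1 forms the pump that carries peptides into the endoplasmic reticulum, gave 1420, 1690 and 1757 at 0 Gy and 954, 1030 and 1180 at 1 Gy. No irradiated array reached any unirradiated one, and the log2 change of -0.62 (SE 0.16) passed with the block (limma adjusted p = 0.0318) and not without it (adjusted p = 0.0872). Tap1 gave 2114, 2901 and 3178 at 0 Gy and 2805, 2949 and 3295 at 1 Gy. These overlapped, with a log2 change of 0.16 (95% interval -0.32 to 0.64, adjusted p = 0.683).

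Tapbp, or tapasin, which bridges the pump to the class I molecule, gave 6957, 6083 and 5904 at 0 Gy and 8685, 7767 and 7189 at 1 Gy. The groups did not overlap, at 6315 ± 563 against 7880 ± 754 (SD, n = 3 each), and the log2 change of 0.32 (95% interval -0.04 to 0.68) did not pass (adjusted p = 0.265, and 0.113 with the block). B2m, the invariant class I light chain, gave 30634, 30440 and 26640 at 0 Gy and 37975, 24978 and 33785 at 1 Gy. Line 2 was lower after irradiation and the others higher (log2 change 0.12, 95% interval -0.36 to 0.60, adjusted p = 0.768).

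The partners of these genes were read from a list of 18 MHC class I, loading and immunoproteasome genes, of which 13 had a probe set with a single gene name and all 13 were tested. By limma without the block 0 of the 13 were called in either direction. Before adjustment the p of that fit fell below 0.05 for 2 that rose and 2 that fell, against 8.39% and 16.7% of all genes tested. With the block 1 was called higher (7.69%, against 6.63% of all genes) and 2 lower (15.4%, against 14.6%), shares close to those of the whole array. Psmb8 and Psmb9, catalytic subunits that interferon places in the immunoproteasome, were the lower ones, at 5967 ± 698 against 4157 ± 606 (log2 change -0.52, adjusted p = 0.0421) and 2901 ± 299 against 2021 ± 328 (log2 change -0.53, adjusted p = 0.0432; SD, n = 3 each). Canx, or calnexin, a chaperone of newly made class I heavy chains and of many other glycoproteins, was the higher one (8456 ± 646 against 13153 ± 543, log2 change 0.64, adjusted p = 0.0287). The heavy chain genes, which resemble each other closely enough for a probe set to read relatives, did not pass, at H2-K1 (log2 change 0.16, adjusted p = 0.724) and H2-D1 (0.23, adjusted p = 0.471), nor did Nlrc5, the transactivator of class I genes (-0.19, adjusted p = 0.569).

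Xaf1, a proapoptotic partner of the inhibitor XIAP, had the most negative log2 change of the 22 genes. It gave 188, 327 and 544 at 0 Gy and 98.1, 137 and 105 at 1 Gy. The unirradiated lines were spread widely, the irradiated ones narrowly, and the groups did not overlap. The mean stood at 353 ± 180 against 113 ± 21.0 (SD, n = 3 each; log2 change -1.52, SE 0.40), and the difference passed with the block (limma adjusted p = 0.0387) and not without it (adjusted p = 0.0929). A second Xaf1 probe set gave a log2 change of -0.81 and also passed only with the block (adjusted p = 0.019). It disagreed on the lines, with 370, 62.4 and 90.2 at 0 Gy and 224, 34.5 and 49.7 at 1 Gy. Line 1 was thus its highest line but the lowest at the brightest probe set, and lines 2 and 3 were under 100. Ifi35, a leucine zipper protein, gave 2916, 3369 and 2826 at 0 Gy and 3124, 3744 and 2815 at 1 Gy, which overlapped (log2 change 0.08, 95% interval -0.32 to 0.49, adjusted p = 0.822).

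A few of the genes differed between the lines, a share not far above that of the array. An F test of the line with dose in the limma model, on 2 arrays a line, called 3 of the 22 genes (13.6%), against 9.62% of all genes tested. Under other filters, scalings and floors the count ran from 0 to 4. Zbp1 was lowest in line 1 and highest in line 3, the line means differing 1.95-fold (adjusted p = 0.0438). Bst2 had the same order with a 2.32-fold range (adjusted p = 0.0485), and Gbp6 was lowest in line 1 and highest in line 2 with a 2.30-fold range (adjusted p = 0.0385). A second Gbp6 probe set did not pass the F test of the line (adjusted p = 0.117). With 1 array for each line and dose, whether the response to dose differed between lines was not testable.

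The pathway that leads to these genes was read from a list of 46 ligands, receptors, kinases, transcription factors, sensors and inhibitors. Of these, 41 had a probe set with a single gene name and 30 were tested, while Tmem173, Mb21d1, Traf3 and Ifnk were among those not analysed here. Without the block 5 of the 30 were called higher (16.7%, against 2.11% of all genes), namely Ifnar1, Ifnar2, Ifngr2, Irf5 and Irf8, and 3 lower (10%, against 3.2%), namely Mavs, Trim25 and Socs1. With the block Irf1, Ikbke and Socs3 joined the higher ones (26.7%, against 6.63% of all genes), and Ddx58 and Pias3 the lower ones (16.7%, against 14.6%). The median log2 change of the 30 genes was 0.38. Without any 1 array or line, 0 pathway genes were called higher and 0 to 1 lower by limma without the block. With all 6 arrays and no block, the limma p before adjustment fell below 0.05 for 10 of the 30 on the higher side and 7 on the lower. Over all genes tested it did so for 8.39% and 16.7%.

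The interferon ligands were not seen. Ifnb1, Ifng and 5 Ifna genes stayed under 100 on every array, the highest signals being 45.4 for Ifna1 and 38.0 for Ifnb1. Of the 8 receptor and kinase genes tested, 3 were called higher without and with the block, among them both chains of the type I receptor. That is 37.5%, against 2.11% of all genes without the block and 6.63% with it. The Ifnar2 probe set, 1 of 3 for this gene, is of the design that can also bind related sequences, so its reading is less certain. Ifnar1 went from 1296 ± 64.1 to 2491 ± 175 (log2 change 0.94, SE 0.13, limma adjusted p = 0.0279) and Ifnar2 from 1120 ± 132 to 2829 ± 389 (log2 change 1.33, SE 0.17, adjusted p = 0.0247; SD, n = 3 each). Ifngr2, the signalling chain of the interferon gamma receptor, rose from 1341 ± 140 to 2573 ± 345 (log2 change 0.94, SE 0.16, adjusted p = 0.0398), and its partner Ifngr1 had a log2 change of 0.41 that did not pass (adjusted p = 0.252). The receptor kinases did not pass, with log2 changes of 0.31 for Jak1 (adjusted p = 0.351), 0.38 for Jak2 (0.301) and 0.09 for Tyk2 (0.806).

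Of the 7 transcription factors tested, 2 were called higher without the block (28.6%, against 2.11% of all genes) and 3 with it (42.9%, against 6.63%). Stat2 (283 ± 35.4 against 210 ± 26.9, log2 change -0.43, adjusted p = 0.205) and Irf9 (823 ± 96.1 against 875 ± 86.6, 0.09, adjusted p = 0.790) did not pass (SD, n = 3 each), and Irf7, the factor that amplifies interferon production, peaked at 46.4. Irf5 rose from 794 ± 136 to 2489 ± 448 (log2 change 1.65, adjusted p = 0.0228) and Irf8, a B lineage and myeloid factor, from 5193 ± 1627 to 16933 ± 5292 (1.70, adjusted p = 0.0453). Irf1 stood at 4024 ± 568 against 6204 ± 961, which passed with the block (log2 change 0.62, adjusted p = 0.0443) and not without it (adjusted p = 0.122).

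Of the 8 tested sensors of nucleic acid and their adaptors, 2 were called lower (25%, against 3.2% of all genes) and none higher without the block. With it 3 were lower (37.5%, against 14.6%) and 1 higher (12.5%, against 6.63%). Trim25, the ubiquitin ligase that activates RIG-I, gave 5613, 4119 and 4710 at 0 Gy and 1498, 871 and 1239 at 1 Gy. Its groups lay far apart, and it fell by 2.02 on the log2 scale (SE 0.25, limma adjusted p = 0.0220). The Trim25 probe set, 1 of 3 for this gene, is of a design that can read more than 1 transcript. Mavs, the mitochondrial adaptor of RIG-I, fell from 680 ± 67.0 to 360 ± 39.3 (log2 change -0.92, adjusted p = 0.0381), and Ddx58, which encodes RIG-I itself, stood at 707 ± 172 against 315 ± 74.1 and passed with the block (log2 change -1.16, adjusted p = 0.0147; 0.0726 without it). Ikbke, a kinase that phosphorylates IRF3 and IRF7, was higher with the block (log2 change 0.95, adjusted p = 0.0235; 0.0721 without it).

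Of the 7 negative regulators tested, 1 was called lower without the block (14.3%, against 3.2% of all genes). With it 1 was higher (14.3%, against 6.63%) and 2 were lower (28.6%, against 14.6%). Socs1, the inhibitor of Janus kinases that ends the interferon signal, fell from 289, 376 and 329 at 0 Gy to 52.9, 71.8 and 48.5 at 1 Gy. All irradiated arrays were under 100, and all unirradiated ones were well above it (331 ± 43.7 against 57.7 ± 12.4, SD, n = 3 each; log2 change -2.53, SE 0.20, limma adjusted p = 0.0103). With signals under 100 set to 100 its log2 change was -1.72 (adjusted p = 0.00573). Socs3, a related inhibitor, was higher with the block (log2 change 0.73, adjusted p = 0.0449, and 0.532 without it). Its probe set is also of a design that can bind related sequences. Pias3, an inhibitor of STAT3, was lower with the block (-0.73, adjusted p = 0.0336, and 0.0576 without it).

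**Figure D4:**
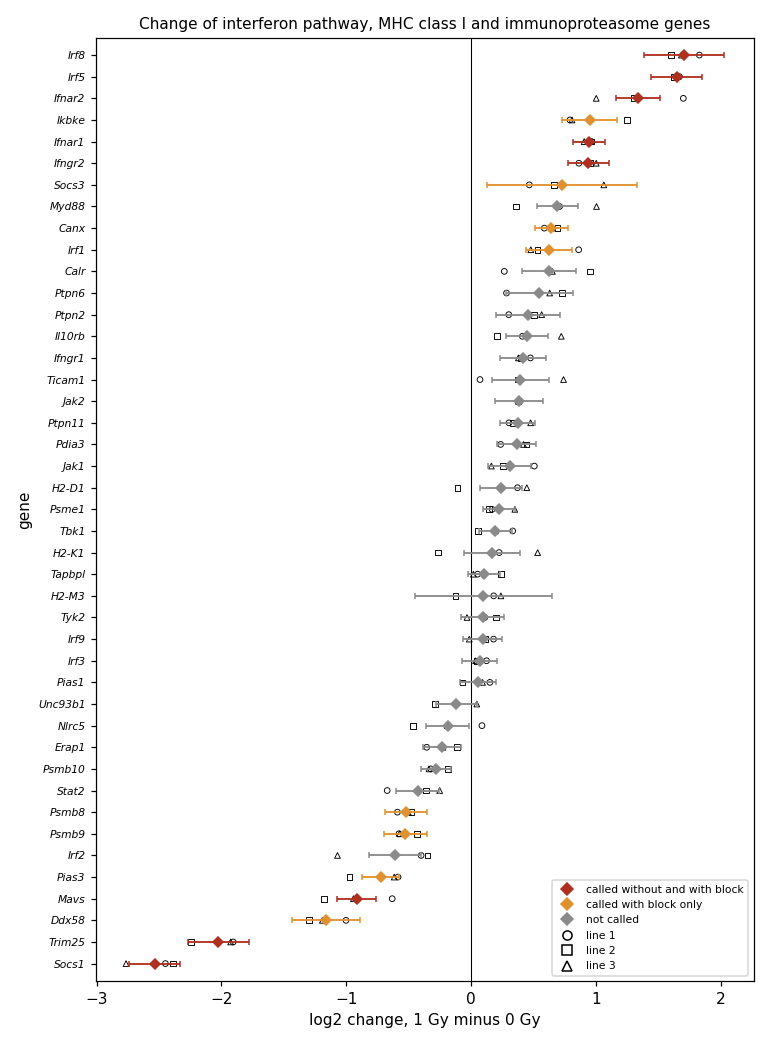
Log2 change (1 Gy minus 0 Gy) of the 30 interferon pathway genes and 13 MHC class I and immunoproteasome genes tested, ordered by size, with the limma estimate and its standard error (diamonds and bars over 3 arrays a dose) and the change within each of the 3 lines (open markers). Irf8, Irf5 and Ifnar2 lie at the top, and Trim25 and Socs1 lie at the bottom with all 3 lines below 0.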

How the data were processed

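RNA of 3 STI571-arrested cell lines, unirradiated or 2 hours after 1 Gy, was hybridised to 6 arrays. The authors deposited signal intensities on a linear scale, made with MAS5 per the submitters' processing notes (version not given), while the study's methods describe another normalization for its own analysis. No further normalization was applied. After 64 control probe sets were left out, signals under 1 were set to 1, log2 was taken, and the 21762 of 45037 probe sets with a signal of 100 or more on at least 1 array were tested for dose with limma 3.58.1 in R 4.3.3 (adjusted p by Benjamini-Hochberg, threshold 0.05). The scripts were tested on simulated data. Genes were named from the platform annotation (34945 probe sets with 1 name, 932 with several and 9160 not listed) and read at their brightest probe set, and 38 of the 38 measured interferon-stimulated genes matched RefSeq. Every interferon-stimulated gene was accounted for, and those called by dose or line or among the 10 brightest are given array by array, with the other tested ones. From the pathway and class I lists, called genes and those with the largest changes were named, and other genes of the receptors, kinases, factors and heavy chains were added after their values were seen.

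The design has each line give an irradiated and an unirradiated sample, and same-numbered arrays deviated together from the dose means (r from 0.668 to 0.781 for 3 pairs, against -0.495 to -0.0525 for the 6 other pairs), so the numbers pair the arrays. The fit without the line follows the methods and gave the standard errors and intervals printed, which thus include differences between lines. The fit with it as a block is given beside it where it changes a call. The precision is limited by 3 arrays a dose. The genes and lists were chosen with earlier results of these data known. Alternatives were other filters, scalings, floors and tests, and leaving out arrays or lines.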

Additional observations from a re-analysis of the deposited data

Results flagged for a closer look

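For 7 of the 22 interferon-stimulated genes tested, the cell lines moved in opposite directions after irradiation. This share was no higher than the 34.9% among all genes tested. The gap between the highest and the lowest log2 change of the 3 lines was 3.61 for Gbp2, 2.94 for Gbp3, 1.93 for Cmpk2, 1.37 for Eif2ak2, 0.628 for B2m, 0.422 for Adar and 0.158 for Ifi35. Ifi35 is counted only through line 3, where its log2 change was -0.0055. The difference between lines was not tested, since each line had 1 array at each dose. For Gbp3 and the brightest Gbp2 probe set it was line 1 that was lower after irradiation, while the second Gbp2 probe set was higher in all 3 lines.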

How the results depend on the processing

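With the replicate block (the cell line), probe sets called went from 419 higher and 556 lower to 1475 and 2499, the interferon-stimulated genes from 2 and 1 to 4 and 6, the pathway genes from 5 and 3 to 8 and 5, and the class I genes from 0 to 3. It turned no call of the interferon-stimulated genes the other way and lost none. With no filter on dim probe sets limma called 1 higher and 0 lower of all probe sets and 0 of the interferon-stimulated and pathway genes in either direction, and 0 interferon-stimulated genes between lines (unadjusted, 2 interferon-stimulated genes higher and 5 lower). A signal of 100 on at least 3 arrays called 1 class I gene. A common median called 274 probe sets lower and 0 interferon-stimulated genes higher. Setting signals under 100 to 100 called 635 higher and 841 lower and 1 class I gene, and a trend in the variance prior 690 higher, 5 pathway genes lower and 1 class I gene. The methods' test, unadjusted and at 1.5-fold, called 1121 higher and 1729 lower, with 4 interferon-stimulated genes lower, 8 pathway genes higher and 6 lower and 1 class I gene, and after Benjamini-Hochberg 172 and 180, with 0 interferon-stimulated genes higher and 1 pathway gene in each direction. The mean of all probe sets called 4 pathway genes higher and 3 lower, and gave Eif2ak2 a log2 change of -0.31. Leaving out 1 array or line, always in the fit without the block, left 0 to 61 probe sets higher and 0 to 33 lower. It left 0 interferon-stimulated genes in either direction (2 to 4 higher and 4 to 6 lower unadjusted), 0 pathway genes higher, 0 to 1 lower and 0 class I genes. In these fits uncalled genes ran through 0, Bst2 from -0.062 to 0.64, Tap1 from -0.013 to 0.28, B2m from -0.0064 to 0.33, Eif2ak2 from -0.18 to 0.50 and Ifi35 from -0.030 to 0.18 (log2 change). Of the genes called with the block, Isg20 ran from 0.67 to 1.40, Ifi47 from 0.54 to 1.19, Gbp6 from -0.92 to -0.30 and Ifit2 from -1.74 to -0.87. Dropping 1 array leaves its line at a single dose, so differences between lines enter these estimates. Within lines 1, 2 and 3, Bst2 (0.58, 0.08 and 0.21) and Tap1 (0.41, 0.02 and 0.05) were higher throughout. The lines' own changes ran from 0.71 to 1.40 for Isg20, 0.60 to 1.22 for Ifi47, -0.80 to -0.46 for Gbp6 and -1.72 to -0.53 for Ifit2. The causes were not tested. Genes under 100 lie near background, where a change could not be read.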
